A study of Mus musculus with 11 samples.

Results

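Forkhead box O (FOXO) factor genes and regulators of phosphoinositide 3-kinase (PI3K) were followed in mouse CD8+ T cells. They are 8 genes chosen by name, Foxo1, Foxo3, Foxo4, Pik3ip1, Irs2, Pik3cd, Pik3r1 and Inpp5d, out of 55414 genes in the deposited gene table, and all 8 were found and passed the filter on low counts. All libraries came from cells of the OT-I genotype, in which a transgenic T cell receptor recognises an ovalbumin peptide, so every group carries the same receptor. At 12 h there were 4 naive libraries from cells left untreated. For the 4 stimulated libraries, cells received the solvent DMSO together with N4, the ovalbumin peptide. For the 3 Torin libraries, with numbers 1, 3 and 4 in their titles, cells received N4 together with Torin, which inhibits the mTOR kinase. The sex and age of the mice, the doses and the length of pretreatment are not stated in the labels, nor is it stated whether libraries came from separate animals. P-values therefore measure only the spread between these libraries, which may be technical.

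PI3K is a lipid kinase that makes the membrane lipid PIP3 after antigen receptors, costimulatory receptors or growth factor receptors are engaged. PIP3 recruits the kinase AKT, and AKT phosphorylates FOXO transcription factors, which then leave the nucleus. The mTOR complex mTORC2 also phosphorylates AKT. In resting T cells, nuclear FOXO1 keeps genes of homing, survival and quiescence switched on. Protein activity, phosphorylation and location are not measured by RNA sequencing, and only transcript levels are described here.

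The promoters of 2 members are shown because 1 had the largest fall after stimulation (Pik3ip1) and the other had the largest rise with Torin (Irs2). Both are RefSeq sequences on build GRCm38.p6, each the 250 bases before the annotated start, written 5′ to 3′ on the strand of the gene. Irs2 lies on the minus strand at chr8:11008930-11009179, and capitals mark its match to a motif of insulin response elements that FOXO factors are known to bind. Pik3ip1 lies on the plus strand at chr11:3330481-3330730 and has no match to either motif searched.
Irs2: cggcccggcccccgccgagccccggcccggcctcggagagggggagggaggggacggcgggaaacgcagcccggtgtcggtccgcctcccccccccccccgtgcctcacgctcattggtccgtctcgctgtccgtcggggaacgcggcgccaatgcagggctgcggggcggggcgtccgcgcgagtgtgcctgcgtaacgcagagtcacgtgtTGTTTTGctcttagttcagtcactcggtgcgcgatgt
Pik3ip1: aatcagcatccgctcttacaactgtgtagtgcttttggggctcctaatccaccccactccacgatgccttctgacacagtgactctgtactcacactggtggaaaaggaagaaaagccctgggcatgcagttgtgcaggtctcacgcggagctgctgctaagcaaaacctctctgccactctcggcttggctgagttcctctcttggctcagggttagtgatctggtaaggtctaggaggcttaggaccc

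The first motif searched was the FOXO core GTAAACA with its reverse complement TGTTTAC, and the second was the insulin response core CAAAACA with its reverse complement TGTTTTG. The motifs share no overlap in these windows, because the first was found in none of the 10 promoters listed for 7 members. Foxo4 has no entry. The windows ran from 250 bases before to 50 bases after the start, 300 bases in all. Among all 32851 promoters of that length, 1199 (3.65%) held the first motif and 2064 (6.28%) held the second. Irs2 was the only member with the second motif, 37 bases before its start. These matches describe letters in a short window and say nothing of binding.

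Totals of estimated counts ranged from 241.9e6 to 405.9e6 per library. Levels are given in CPM, the usual scaling of counts to library size, here with edgeR's composition factors, and levels of different genes are compared only per kilobase of exon. The labelled cell type was checked with 8 CD8 T cell markers, which were high throughout, with a summed level of 5560 to 7050 CPM in naive, 2520 to 3190 in stimulated and 4240 to 4410 in Torin libraries. Markers of other cells stood out in some libraries. The 8 B cell markers summed to 47400, 14400 and 13200 CPM in naive 4, stimulated 4 and Torin 4 and to at most 367 CPM in the others. The 8 granulocyte markers summed to 8560 CPM in naive 2 and 2070 in stimulated 2 and to at most 175 in the others. In naive 2 the 8 markers of monocytes and macrophages summed to 2010 CPM, against at most 202 elsewhere. No marker of these lists was at 0 in every library. A bulk library cannot tell fewer cells of a type from less RNA per cell. After composition factors the median log2 change of all 22238 genes tested was -0.22 for stimulated against naive, and -0.71 with library totals alone. Of the genes that changed in that comparison, 4272 were higher and 4501 lower, against 2600 and 6529 with library totals alone. For Torin against stimulated the medians were -0.02 and 0.11, with 515 higher and 512 lower against 719 and 345. For Torin against naive they were -0.18 and -0.52, with 3648 higher and 3515 lower against 2284 and 4553.

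After stimulation 7 of the 8 members fell and none rose. The genes that fell were 2 FOXO factor genes, inhibitors of PI3K signalling, a receptor adaptor and subunits of the kinase itself. A call is an adjusted p below 0.05 in edgeR's quasi-likelihood test, adjusted by Benjamini and Hochberg over all genes tested. Of all genes tested 39.5% changed and 20.2% fell. Genes at low levels are harder to call. Of the 8550 genes with a mean of at least 5 CPM, tested alone, 5881 changed and 3105 fell. Foxo3 and Foxo4 were not among these. The 4 stimulated libraries lay wholly below the 4 naive libraries for the same 7 genes, against 41.5% of all genes without overlap in either direction, 21.7% lower and 19.8% higher. The median log2 change of the members was -1.99. The members were chosen with earlier results of these data known, so these counts are descriptions. The count stayed at 7 when any 1 library, or all libraries of any 1 number, was left out, including the numbers 2 and 4 with markers of other cells. The markers of monocytes and macrophages also fell without overlap, from sums of 117 to 2010 CPM in naive to 5.60 to 75.3 CPM in stimulated libraries (7.82 to 12.2 CPM in Torin libraries). The 5 erythroid and platelet markers summed to 265 to 904 CPM in naive, 146 to 461 in stimulated and 149 to 327 in Torin libraries. Of these, only the platelet gene Pf4 did not overlap between naive (151.7 to 581.9 CPM) and stimulated libraries (63.5 to 124.4 CPM). The part of these other cells in the members' changes was not tested.

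Among the FOXO factors, Foxo1, the main FOXO gene of naive T cells, stood at 69.62, 51.04, 49.53 and 53.6 CPM in naive 1 to 4. It stood at 30.73, 29.89, 17.67 and 18.21 CPM in stimulated 1 to 4 and at 27.85, 27.58 and 31.85 CPM in Torin 1, 3 and 4. Every stimulated and Torin library was below every naive one, while stimulated and Torin libraries overlapped. The fall after stimulation was 2.32-fold (log2 change -1.21, SE 0.21, adjusted p = 0.000865). With Torin the level was 1.92-fold below naive (log2 change -0.94, SE 0.23, adjusted p = 0.00897). That call ended without the libraries of number 1 (-0.79, adjusted p = 0.06) or of number 4 (-0.92, adjusted p = 0.0505). Torin against stimulated gave a log2 change of 0.27 (adjusted p = 0.57).

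Foxo4, a less abundant factor of the same family, stood at 1.959, 3.033, 4.263 and 3.007 CPM in naive 1 to 4. In stimulated 1 to 4 it stood at 0.648, 0.318, 0.908 and 0.323 CPM, and in Torin 1, 3 and 4 at 1.086, 1.251 and 0.606 CPM. All stimulated and Torin values lay below the lowest naive value. The fall after stimulation was 5.58-fold (log2 change -2.48, SE 0.44, adjusted p = 0.00103), and Torin against naive gave -1.64 (SE 0.47, adjusted p = 0.0214). The latter call ended without naive 3 (-1.45), Torin 1 (-1.72) or Torin 4 (-1.28), and without number 1 (-1.89), 3 (-1.65) or 4 (-1.28). Torin against stimulated gave 0.84 (adjusted p = 0.333).

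Foxo3, the third FOXO gene, was the one member that did not pass the test after stimulation. Its levels were 3.619, 6.096, 5.102 and 6.186 CPM in naive 1 to 4 and 4.918, 3.212, 4.781 and 5.583 CPM in stimulated 1 to 4. In Torin 1, 3 and 4 they were 3.367, 3.815 and 3.792 CPM, and the ranges of the 3 groups overlapped. The log2 changes were -0.18 (adjusted p = 0.569), -0.34 (adjusted p = 0.513) and -0.52 (adjusted p = 0.14) for stimulated against naive, Torin against stimulated and Torin against naive. With library totals alone, Foxo3 was called lower in stimulated cells (-0.65, adjusted p = 0.0426) and in Torin cells (-0.84, adjusted p = 0.0268) than in naive cells. Without number 2 the first of these changes was 0.03.

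Per kilobase of exon, Foxo1 made up most of the FOXO transcripts in each group. Its share of the summed level of the 3 genes was 80.0% ± 5.87 (SD, n = 4) in naive, 77.3% ± 8.14 (n = 4) in stimulated and 81.4% ± 2.93 (n = 3) in Torin libraries. The shares of naive and stimulated libraries did not differ beyond their spread (difference -2.73 percentage points, exact two-sided permutation p = 0.6). Torin against stimulated gave 4.07 points (exact p = 0.457) and Torin against naive 1.34 points (exact p = 0.743), where 3 libraries against 4 cannot give a p below 0.0571. Foxo3 per Foxo1 was 0.112 ± 0.0356 in naive, 0.242 ± 0.107 in stimulated and 0.144 ± 0.0122 in Torin libraries, given as a description.

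**Figure D1:**
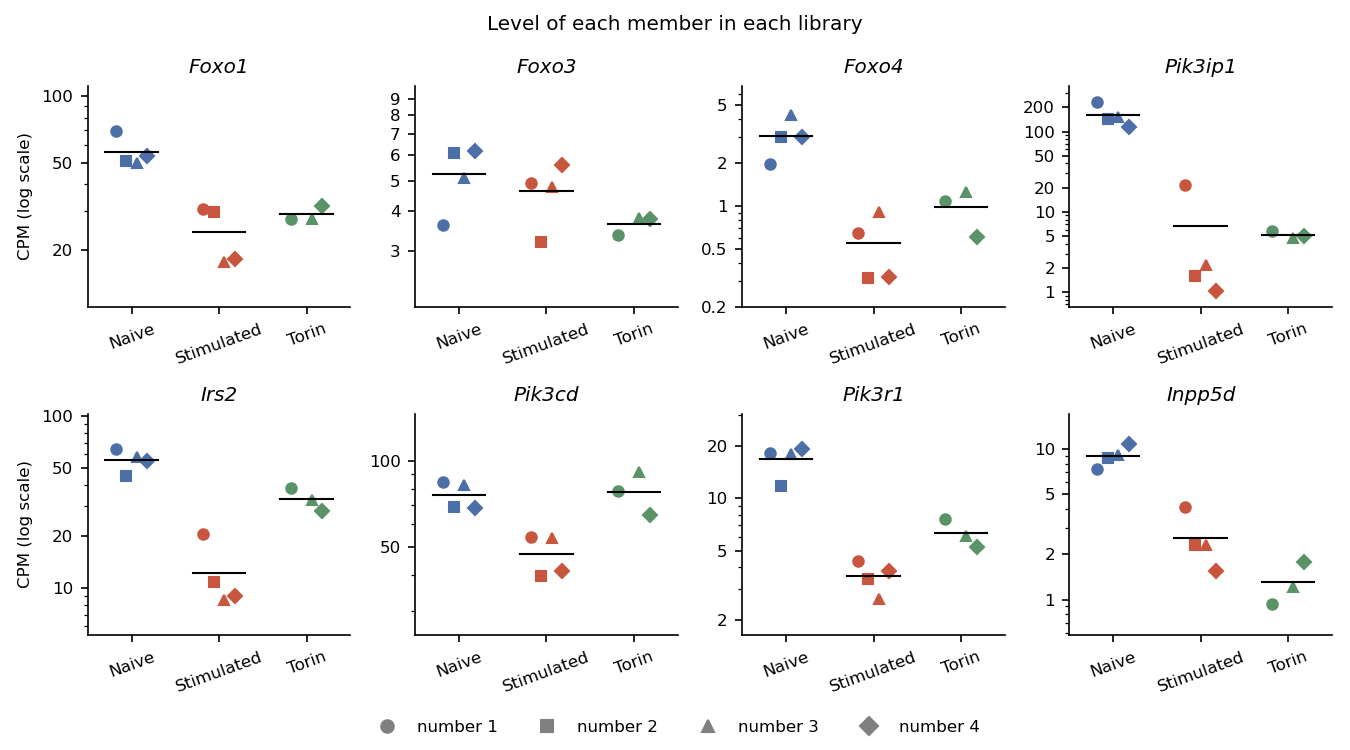
Level of each member in each library, in CPM on a log scale, with 1 panel per gene. Points are libraries, their shapes give the number in the title, and the bar is the group mean. Stimulated libraries lie below all naive libraries in every panel except Foxo3, and stimulated 1 stands apart for Pik3ip1 at 21.5 CPM.

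Of the inhibitors of the pathway, Pik3ip1 encodes a membrane protein that binds and restrains the PI3K catalytic subunit. It stood at 230.8, 143.5, 152.9 and 115.3 CPM in naive 1 to 4. In stimulated 1 to 4 it stood at 21.45, 1.595, 2.153 and 1.042 CPM, and in Torin 1, 3 and 4 at 5.834, 4.767 and 4.981 CPM. Every stimulated and Torin library lay far below the naive range, and stimulated 1 was far above the other stimulated libraries. The group means differed 24.5-fold (log2 change -4.61, SE 0.93, adjusted p = 0.00227), and without stimulated 1 the log2 change was -6.65. Torin against naive gave -4.95 (SE 1.07, adjusted p = 0.00476).

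The direction of Torin against stimulated for Pik3ip1 rested on that 1 library. With all libraries the log2 change was -0.34 (adjusted p = 0.902), and with the replicate number as a block it was 0.53 (adjusted p = 0.761). Without stimulated 1 it was 1.70 (adjusted p = 0.0187), so Pik3ip1 was then called higher with Torin. Without all libraries of number 1 it was 1.61 (adjusted p = 0.0529). Among stimulated libraries, stimulated 1 was also the highest for 6 of the 8 members. It also held 66.0 CPM of Klf2, a quiescence factor, against 2.54 to 3.47 CPM in the others, and 22.7 CPM of S1pr1, the egress receptor, against 0.984 to 2.45 CPM. What set this library apart was not tested.

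Inpp5d encodes SHIP1, a phosphatase that removes the 5-phosphate of PIP3. Its levels were 7.316, 8.69, 9.145 and 10.72 CPM in naive 1 to 4, 4.147, 2.3, 2.311 and 1.556 CPM in stimulated 1 to 4, and 0.935, 1.204 and 1.777 CPM in Torin 1, 3 and 4. The naive range lay above both other groups, and Torin 4 was above stimulated 4, so those groups overlapped. The fall after stimulation was 3.48-fold (log2 change -1.80, SE 0.32, adjusted p = 0.001). Inpp5d was the member with the largest fall in Torin against naive after Pik3ip1, 6.87-fold (log2 change -2.78, SE 0.37, adjusted p = 0.000272). Torin against stimulated gave -0.98 (adjusted p = 0.141). DESeq2 called that difference (-1.0, adjusted p = 0.0422).

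Irs2 encodes an adaptor that links insulin, IGF1 and cytokine receptors to PI3K. It stood at 64.64, 44.68, 57.72 and 54.86 CPM in naive 1 to 4, at 20.57, 10.85, 8.587 and 9.014 CPM in stimulated 1 to 4, and at 38.13, 32.72 and 28.12 CPM in Torin 1, 3 and 4. The 3 groups did not overlap, with Torin between the others. The fall after stimulation was 4.53-fold (log2 change -2.18, SE 0.28, adjusted p = 0.000115). Torin libraries were 2.69-fold above stimulated ones (log2 change 1.43, SE 0.29, adjusted p = 0.0228). That call ended without stimulated 2 (1.37), stimulated 4 (1.31), Torin 1 (1.31) or Torin 3 (1.43), and without number 2 (1.37), 3 (1.30) or 4 (1.43), with adjusted p from 0.0604 to 0.184. Torin against naive gave -0.75 (adjusted p = 0.0731), which was past the threshold in 7 of 22 alternatives.

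The leukocyte catalytic subunit p110δ is encoded by Pik3cd. Its levels were 84.46, 69.22, 82.43 and 68.64 CPM in naive 1 to 4, 54.08, 39.57, 53.84 and 41.32 CPM in stimulated 1 to 4, and 78.23, 91.31 and 64.92 CPM in Torin 1, 3 and 4. Stimulated libraries lay below all others, and Torin and naive libraries overlapped. The fall after stimulation was the smallest among the 7 called, 1.61-fold (log2 change -0.69, SE 0.16, adjusted p = 0.0052). Torin libraries were 1.66-fold above stimulated ones (log2 change 0.73, SE 0.17, adjusted p = 0.0389). That call ended without naive 3 (0.73), stimulated 2 (0.65), stimulated 4 (0.67), Torin 1 (0.73) or Torin 3 (0.60), without any 1 number (0.65 to 0.81), and with no filter on low counts (0.74). For Torin against naive the log2 change was 0.04 (SE 0.17, adjusted p = 0.901), with a sign that varied with the scaling (-0.32 with library totals alone).

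Pik3r1 encodes the regulatory subunit p85α, which stabilises and restrains the catalytic subunits. Its levels were 18.12, 11.65, 17.95 and 19.04 CPM in naive 1 to 4, 4.356, 3.434, 2.629 and 3.817 CPM in stimulated 1 to 4, and 7.556, 6.085 and 5.226 CPM in Torin 1, 3 and 4. The 3 groups did not overlap, and Torin lay between naive and stimulated. The fall after stimulation was 4.69-fold (log2 change -2.23, SE 0.23, adjusted p = 3e-05), and Torin against naive gave -1.41 (SE 0.24, adjusted p = 0.00127). Torin against stimulated gave 0.82 (SE 0.23) and missed the threshold (adjusted p = 0.0744), which DESeq2 (0.80, adjusted p = 0.0166) and a mean CPM of at least 5 (0.80, adjusted p = 0.0401) placed past it. Naive 2, the library with granulocyte markers, held the lowest naive value. The level of Pik3r1 per kilobase relative to Pik3cd was 0.136 ± 0.0278 in naive, 0.0479 ± 0.0121 in stimulated and 0.0504 ± 0.00931 in Torin libraries, given as a description with no test.

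Torin against stimulated thus had 2 members called higher, Irs2 and Pik3cd, and none called lower. In that comparison 4.62% of all genes changed and 2.32% were higher. Of the 8550 genes with a mean of at least 5 CPM, tested alone, 1378 changed and 684 were higher. The groups did not overlap for Irs2, Pik3cd and Pik3r1, all higher with Torin, against 19.7% of all genes in either direction and 9.56% in that direction. The median log2 change of the members was 0.50. No member was called without stimulated 2, stimulated 4, Torin 1 or Torin 3, and 1 was called without naive 3. Of the 4 NK cell markers, Eomes, which CD8 T cells also make, stood at 5.16 to 14.9 CPM in stimulated and 31.8 to 43.8 CPM in Torin libraries, while the NK receptor gene Ncr1 was at 0, 0 and 0.376 CPM in Torin 1, 3 and 4. In Torin against naive, 5 members were called lower, Foxo1, Foxo4, Pik3ip1, Pik3r1 and Inpp5d, where 32.2% of all genes changed and 15.8% were lower. For 6 members, these 5 and Irs2, the Torin libraries lay wholly below the naive ones, as did 22.4% of all genes (21.1% lay wholly above and 43.5% did not overlap in either direction). The median of the members was -1.18. Of the 8550 genes with a mean of at least 5 CPM, 5120 changed and 2633 were lower in Torin against naive. These comparisons share libraries with one another, so their values are set side by side without a measure of likeness.

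**Figure D2:**
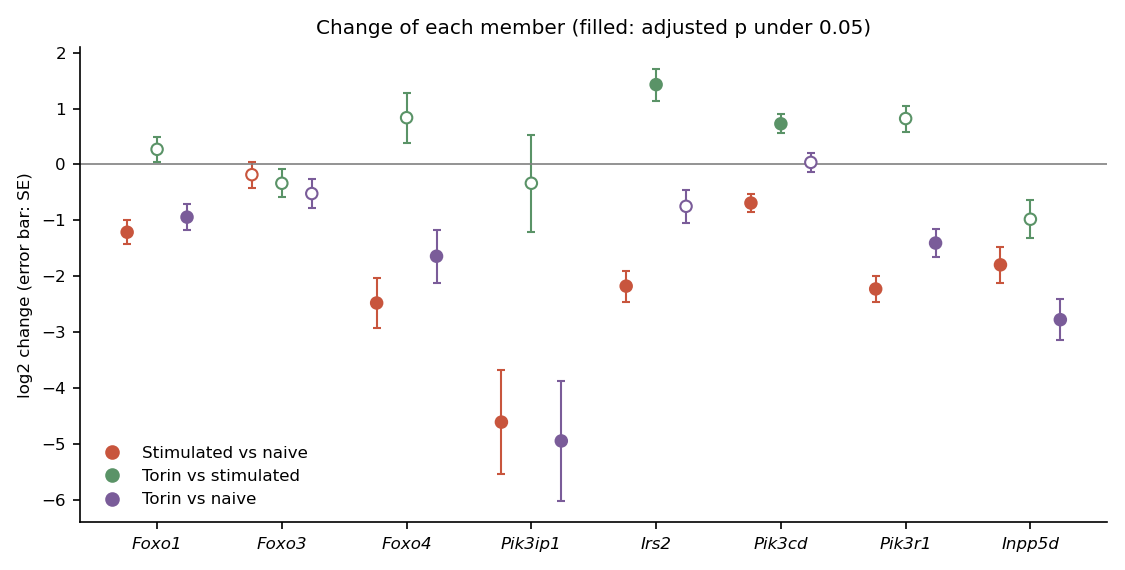
Log2 change of each member in the 3 comparisons, with bars of 1 standard error. Filled points passed the adjusted threshold of 0.05 in edgeR. Stimulated against naive is filled for 7 genes, Torin against stimulated for Irs2 (1.43) and Pik3cd (0.73), and Torin against naive for 5 genes.

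Per kilobase of exon, the order of the members changed with the condition. In naive cells Pik3ip1 was the highest at 37.6 ± 11.6 CPM per kilobase, above Pik3cd at 12.2 ± 1.35, with ranges that did not overlap. Irs2 (8.77 ± 1.31) and Foxo1 (6.46 ± 1.07) followed with overlapping ranges. Pik3r1 (1.66), Inpp5d (1.18), Foxo4 (0.88) and Foxo3 (0.694) came last, each overlapping its neighbour. In stimulated cells Pik3cd was the highest at 7.54 ± 1.25 CPM per kilobase, and all 7 below it overlapped their neighbours, from Foxo1 (2.78) through Irs2 (1.94), Pik3ip1 (1.54), Foxo3 (0.611), Pik3r1 (0.353) and Inpp5d (0.339) to Foxo4 (0.158). In Torin cells the order was Pik3cd (12.5 ± 2.11), Irs2 (5.22), Foxo1 (3.36), Pik3ip1 (1.22), Pik3r1 (0.624), Foxo3 (0.483), Foxo4 (0.281) and Inpp5d (0.172). Only the last pair overlapped there.

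The transcript table divides each gene among annotated transcripts. Foxo1 and Irs2 have 1 annotated transcript each, of 652 and 1321 codons. For Pik3r1, the 724-codon transcript of p85α held 75.4% ± 5.34 of the estimated count in naive, 74.6% ± 7.03 in stimulated and 79.0% ± 5.52 in Torin libraries, and most of the rest was assigned to retained-intron transcripts. The 3 shorter coding transcripts of Pik3r1 together stood at 0.11 ± 0.077 CPM in naive cells.

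For Pik3cd, several coding transcripts of 1040 to 1047 codons differ little from each other, and their assignment changed from library to library. The share of Pik3cd-201 (1045 codons) ran from 28.9% to 80.9% in naive, from 0% to 43.1% in stimulated and from 27.6% to 67.4% in Torin libraries. Summed over the 7 full-length coding transcripts, Pik3cd had means of 62.0 ± 10.1 CPM (naive), 30.7 ± 6.92 CPM (stimulated) and 57.5 ± 10.4 CPM (Torin). The noncoding transcripts, 2 short processed ones, stood at 12.3 ± 4.0, 14.8 ± 7.61 and 18.2 ± 3.73 CPM. The full-length coding transcripts thus held 81.2%, 65.5% and 73.5% of the gene's count in naive, stimulated and Torin libraries.

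Inpp5d showed a similar exchange between near-equal transcripts of 1190 and 1191 codons. Inpp5d-210 held 81.3% in Torin 1 but 2.79% and 14.5% in Torin 3 and 4, where Inpp5d-201 held 79.4% and 65.3%. Summed, the full-length coding transcripts of Inpp5d held 76.8%, 84.0% and 82.2% in naive, stimulated and Torin libraries. Such swaps between near-identical transcripts cannot be told apart from errors of assignment. The main transcript of Foxo3, of 672 codons, held 77.3% ± 4.35 in naive, 62.6% ± 5.20 in stimulated and 78.0% ± 14.9 in Torin libraries. Naive and stimulated libraries did not overlap for it (exact two-sided permutation p = 0.0286, the smallest that 4 against 4 can give, 0.0857 adjusted over 6 genes). The main transcript of Pik3ip1 went from 91.1% ± 1.22 to 72.7% ± 14.7 (exact p = 0.0286, adjusted 0.0857), at a level near 1 to 2 CPM in 3 of the stimulated libraries. None of the 6 shares compared between naive and stimulated libraries passed the threshold after adjustment. The shares in Torin libraries could not pass it, since 3 libraries against 4 cannot give a p below 0.0571.

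**Figure D3:**
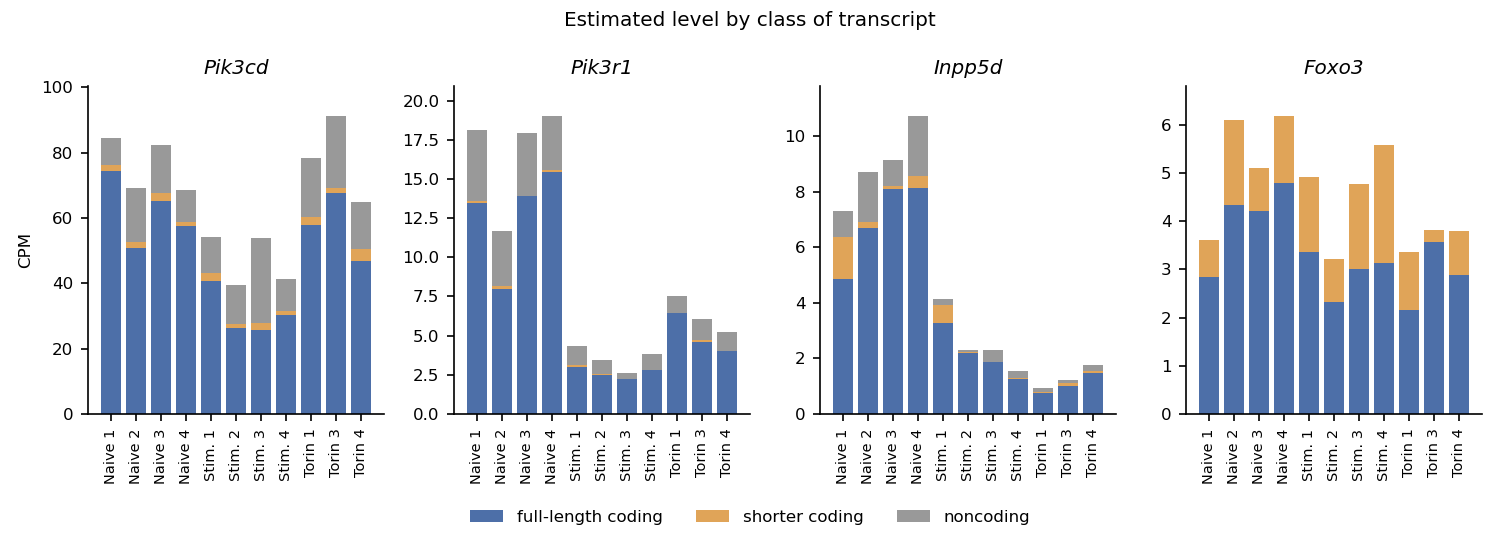
Estimated level in CPM by library for Pik3cd, Pik3r1, Inpp5d and Foxo3, stacked by class of transcript. Full-length coding means a coding sequence of at least 90% of the longest of that gene. The full-length part of Pik3cd is lower in all 4 stimulated libraries than in naive and Torin libraries, while its noncoding part overlaps between the groups.

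The other genes of the PI3K pathway were read from a list of 38. It was chosen with earlier results of these data known, so its counts are descriptions. After stimulation 20.2% of all genes fell and 19.2% rose. Of the 8550 genes with a mean of at least 5 CPM, 3105 fell and 2776 rose. Of the 38 genes of the list 22 fell and 2 rose, with a median log2 change of -1.23. The largest falls were those of Gab3, a docking adaptor (9.03 to 0.918 CPM, log2 change -3.30), Insr, the insulin receptor (7.60 to 1.21 CPM, -2.65), Phlpp1, an AKT phosphatase (3.40 to 0.753 CPM, -2.17), and Sgk1, an AKT-related kinase (21.0 to 4.79 CPM, -2.13). The rises were those of Rheb, the GTPase that activates mTORC1 (123 to 256 CPM, 1.06, adjusted p = 0.000363), and Akt2, an AKT isoform (28.0 to 49.8 CPM, 0.83, adjusted p = 0.0177). The call of Akt2 ended with library totals alone (0.36) and without naive 3 (0.71), number 2 (0.78) or number 4 (0.84).

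The catalytic subunit Pik3cg fell (2.55 to 0.606 CPM, log2 change -2.07, adjusted p = 0.00266). Its relatives Pik3ca (-0.43, adjusted p = 0.0928) and Pik3cb (-0.19, adjusted p = 0.789) did not pass, although library totals alone (-0.88) and a mean CPM of at least 5 (-0.57) called Pik3ca lower. Pdpk1, the kinase that activates AKT, fell by 0.74 on the log2 scale (adjusted p = 0.00194), a call that ended without number 4 (-0.54). Akt1 had a log2 change of 0.05 (adjusted p = 0.923).

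With Torin, 2 of the 38 were higher than in stimulated cells and none was lower, with a median log2 change of 0.35. The share of the list called was near the 4.62% of all genes that changed in either direction and above the 2.32% that were higher. Of the 8550 genes with a mean of at least 5 CPM, 684 were higher. A count of 2 genes gives no result about the list. Igf1r, the IGF1 receptor, stood at 11.25, 13.62, 12.96 and 15.55 CPM in naive 1 to 4, at 4.739, 4.267, 5.161 and 5.054 CPM in stimulated 1 to 4 and at 14.44, 13.83 and 15.17 CPM in Torin 1, 3 and 4. Stimulated libraries lay below all others, and Torin overlapped with naive. The log2 change with Torin was 1.59 (SE 0.15, adjusted p = 0.00129), and the call ended only without all libraries of number 3 (1.66) among 22 alternatives. Inpp4b, a phosphatase that acts on the lipid made by SHIP1, also passed (21.3 to 35.8 CPM, 0.75, adjusted p = 0.0432). Its call ended in 16 of the 22, among them the replicate block (0.65) and the omission of naive 3, naive 4 or any 1 stimulated or Torin library (0.64 to 0.85). Akt1 (-0.30), Akt2 (-0.04), Pdpk1 (0.36), Pik3ca (0.44), Pik3cb (-0.55) and Pik3cg (0.58) gave log2 changes that did not pass the test. Without naive 3, naive 4, stimulated 1, stimulated 4 or any 1 Torin library, 1 gene of this list was called.

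Against naive cells, 11 of the 38 were lower with Torin and 4 higher, with a median of -0.52. Of all genes 15.8% were lower, 16.4% higher and 32.2% changed, with a median of -0.18. Of the 8550 genes with a mean of at least 5 CPM, 2633 were lower and 2487 higher. The share of the list called in either direction was not far from that of all genes. Its calls were mostly lower, whereas those of all genes were nearly even between the directions. The lowest were Gab3 (log2 change -3.27), Pik3r2, a regulatory subunit gene (-2.94), Trat1, a T cell receptor adaptor (-2.47), and Sgk1 (-2.43). Icos, a costimulatory receptor that engages PI3K, was higher (27.8 to 68.5 CPM, 1.30, adjusted p = 0.00452), a call that ended without number 3 (1.24). Akt2 (0.80) and Rheb (0.52) were also higher, and both lost their call with library totals alone (0.44 and 0.19). The call of Akt2 also ended without naive 2, 3 or 4 or Torin 1 or 3 (0.67 to 0.82), and that of Rheb without naive 1, 3 or 4 or Torin 1 or 4 (0.45 to 0.52). Pik3cg was lower (-1.49, adjusted p = 0.0306), a call that ended without naive 4 (-1.26), Torin 1 (-1.17) or Torin 3 (-1.45). Akt1 (-0.25), Pdpk1 (-0.38), Pik3ca (0.01) and Pik3cb (-0.73) did not pass.

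Genes reported as raised by FOXO factors in lymphocytes or other cells formed a list of 30, of which Insr and Rictor are also among the 38. The list was chosen with earlier results of these data known, so its counts are descriptions. After stimulation 24 of its genes fell and 1 rose, with a median log2 change of -2.15. Klf2 fell most, from 640 ± 124 to 18.8 ± 31.5 CPM (log2 change -5.09, adjusted p = 0.00344), followed by the interleukin 7 receptor gene Il7r (-4.94), S1pr1 (-4.80) and the chemokine receptor gene Cxcr4 (-4.22). Without stimulated 1 the log2 changes were -7.73 for Klf2, -6.75 for S1pr1 and -5.66 for Il7r, which puts S1pr1 before Il7r. The one rise was that of Gabarapl1, an autophagy gene (27.3 to 61.4 CPM, 1.17, adjusted p = 0.000375). Of all genes tested, 20.2% fell and 19.2% rose. Of the 8550 genes with a mean of at least 5 CPM, 3105 fell and 2776 rose.

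With Torin, 7 of these 30 were higher than in stimulated cells and none was lower, with a median of 0.44, against 2.32% of all genes higher. Of the 8550 genes with a mean of at least 5 CPM, 684 were higher. Cxcr4 stood at 1.899, 1.727, 1.658 and 1.171 CPM in stimulated 1 to 4 and at 15.54, 29.83 and 13.65 CPM in Torin 1, 3 and 4. The Torin libraries lay within or below the naive range of 23.37 to 37.17 CPM, and all were far above the stimulated ones (log2 change 3.61, SE 0.31, adjusted p = 0.000943). Bcl2l11, the proapoptotic gene of BIM, was 10.1 and 34.7 CPM (1.78, adjusted p = 0.0149), and Ccr7, a lymph node homing receptor, 416 and 1285 CPM (1.63, adjusted p = 0.00751). The call of Bcl2l11 ended without Torin 3 (1.65) or any 1 number (1.65 to 1.97), and that of Ccr7 without number 3 (1.62) or 4 (1.54).

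Il7r and Klf2 did not pass the test between Torin and stimulated cells. Il7r stood at 4.09 CPM in stimulated and 4.20 CPM in Torin cells (log2 change 0.04, adjusted p = 0.992). Klf2 stood at 18.8 and 28.6 CPM (0.61, adjusted p = 0.817), and without stimulated 1 it was called higher with Torin (3.24). The count for the list was 9 higher and 2 lower with the replicate block, and 11 higher and 3 lower with DESeq2. Those 3 were S1pr1 (-2.79), Txnip (-1.13) and Bnip3 (-3.04). The list had 11 genes called without stimulated 1, 4 without stimulated 4, 4 without Torin 1 and 3 without Torin 3. Against naive cells, 15.8% of all genes were lower and 16.4% higher with Torin. Of the 8550 genes with a mean of at least 5 CPM, 2633 were lower and 2487 higher. Of the 30 genes of the list 19 were lower and 3 higher, with a median of -1.81. S1pr1 was lowest (log2 change -7.56), followed by Il7r (-4.90), Txnip, an inhibitor of glucose uptake (-4.65), and Klf2 (-4.48). Without Torin 4, Il7r gave -5.49. The call of Klf2 ended without Torin 1 (-4.57), Torin 3 (-4.68) or Torin 4 (-4.13). Higher than naive were Ccr7 (1.87), Gabarapl1 (1.42) and the transcription factor gene Foxp1 (0.77), the last no longer called without Torin 1 (0.71) or with library totals alone (0.42).

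**Figure D4:**
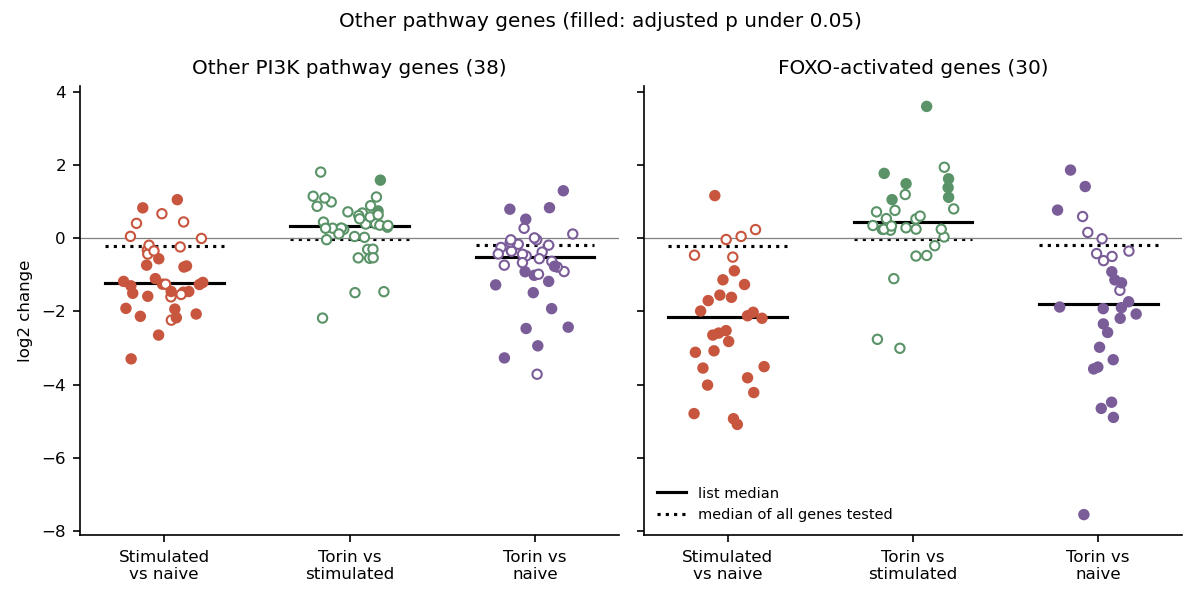
Log2 change of each gene of the 38 PI3K pathway genes and the 30 FOXO-activated genes in the 3 comparisons. Both lists were chosen with earlier results of these data known. Filled points passed the adjusted threshold of 0.05. The solid line is the list median and the dotted line the median of all genes tested, and after stimulation these stood at -1.23 and -0.22 on the left and at -2.15 and -0.22 on the right.

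Genes with the most similar pattern were found by the Pearson correlation of log2 CPM over the 11 libraries among 5621 genes with a mean of at least 10 CPM. The points share libraries, composition factors and the 3 groups, so these values are descriptions. Pik3ip1 was nearest to Tmem71 (r = 0.991), Ripor2 and Ypel3, Irs2 to B4galt1 (0.987), Sfxn3 and Frat2, and Pik3cd to Manbal (0.986), Dhrs1 and Irf2bp2. Pik3r1 was nearest to Zyx (0.986), Ets1 and Atg16l2, and Inpp5d to Inpp1 (0.981), an inositol phosphatase gene, Lpar6 and Sit1. Foxo1 was nearest to Slfn1 (0.977), Pde4b and Dirc2, and Foxo4 to Kansl1 (0.971), Sh3bgrl3 and S100a10. Foxo3 had the weakest match, with Dcp2 (0.843), Crlf2 and Atox1.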

How the data were processed

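The tables hold estimated counts per gene and transcript, in whole numbers, as deposited by the authors. The submitters' processing notes name the build mm39 and, without their roles, StringTie 2.1.0, STAR 2.7.1a, DESeq2 1.30.1, SAMtools 1.9 and R 4.0.5. Per the labels' protocols, a SMARTer poly(A) kit for low input was used. Stimulated libraries are headed as controls in the tables and were matched to their titles by number. Totals ran from 241.9e6 to 405.9e6 and are larger than usual read numbers. The labels give no reason for this, and no counting intervals are given.

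GENCODE M21 (on GRCm38) supplied symbols and lengths of exons through its identifiers (94.0% of 55414 genes). Its exon coordinates on that build gave these lengths and the overlaps with antisense genes described below. Testing used edgeR 4.0.16 (R 4.3.3) with the quasi-likelihood F test, TMM factors, a low-count filter by filterByExpr (minimum count 10), and all 11 libraries in 1 model of group means (22238 genes, common biological coefficient of variation 0.791). Adjustment was by Benjamini and Hochberg over all genes, with a threshold of 0.05. The SE is the absolute log2 change divided by the square root of F. Transcript shares were compared by exact permutation. On data simulated with known changes, the test recovered 31% of 4-fold changes for stimulated against naive (29 of 94 among 20910 genes). For Torin against stimulated it recovered 30% (28 of 93 among 20868). Among genes with a mean of at least 5 CPM, these shares were 64% (n = 42) and 66% (n = 38). Of 2-fold changes among all genes it recovered 2% in each comparison, and it made 0 false calls. The simulated data for stimulated against naive held 92 genes with 2-fold and 94 with 4-fold changes, whereas 8773 genes were called in the real comparison. For Torin against stimulated they held 96 and 93, whereas 1027 were called. With fewer changed genes the adjustment is stricter, so these shares do not carry over to the real comparisons.

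The 8 members and both lists were chosen with earlier results of these data known. Genes of the lists were named by rule: the 4 largest rises and 4 largest falls past the threshold in each comparison, and Akt1, Akt2, Pdpk1, Pik3ca, Pik3cb, Pik3cg, Klf2 and Il7r whatever their result. Some genes that the rule names are not reported here. Values of Klf2 and S1pr1 by library were added after seeing them. The exons of Foxo1, Pik3ip1 and Irs2 overlap antisense genes over 674, 91 and 162 bases, which held at most 1, 721 and 24 estimated counts in any library, and whether strand was used is not stated.

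Each library's log2 CPM minus its group's mean was correlated between libraries of the same number, at 0.16, 0.22, 0.14 and 0.28 for stimulated and naive, and at 0.11, 0.15 and 0.30 for Torin and stimulated, so the numbers pair these libraries. For Torin and naive they were 0.08, 0.13 and 0.26. In every comparison these values were above those of the same libraries with libraries of other numbers, so the numbers pair Torin and naive libraries too. The main test and the permutation tests of shares left this pairing out, and the number was tried as a replicate block. Other alternatives were DESeq2 1.42.0, DESeq2 size factors in edgeR, a filter at a mean CPM of 5, no filter, library totals without composition factors, only the groups compared, and leaving out each library and each number. A sum over full-length coding transcripts was added after seeing the data.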

Additional observations from a re-analysis of the deposited data

Results flagged for a closer look

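Both results below have 1 library far from the other 3 of its group, by Dixon's ratio of the gap to the range against its 95% critical value for 4 samples. Of 16 gene and group combinations checked 2 passed, and chance gives about 1 in 20.

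Pik3ip1 in stimulated cells was 21.5 CPM in stimulated 1 and 1.04 to 2.15 CPM in the other 3, a ratio of 0.946. Pik3r1 in naive cells was 11.7 CPM in naive 2 and 17.9 to 19.0 CPM in the other 3, a ratio of 0.852. Naive 2 also held 8560 CPM of granulocyte markers, and the part of these in the value of Pik3r1 was not tested.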

How the results depend on the processing

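For stimulated against naive, the 7 called members kept their direction and their call in every alternative run (Foxo4 and Foxo3 were not tested with a mean CPM of at least 5), and the number of all genes called ran from 6659 to 8569 when libraries were left out. With a mean CPM of at least 5, 14 genes of the PI3K list were called in place of 24, because fewer genes were tested. Torin against stimulated depended more on the setting. All genes called were 2959 with DESeq2, 656 with no filter, and 14 to 1058 when 1 library or number was left out. Members called were 4 with DESeq2, 1 with no filter, and 0 to 3 under the same omissions. FOXO-activated genes called were 14 with DESeq2 and 1 to 11 under omissions. PI3K pathway genes called were 12 with DESeq2, 1 with no filter, 4 with a mean CPM of at least 5, and 0 to 3 under omissions. For Torin against naive, omissions gave 3 to 6 members and 9 to 15 PI3K pathway genes called. The cause of these shifts was not tested, except that fewer samples enter each omission.

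With the replicate block, 11 FOXO-activated genes were called in Torin against stimulated in place of 7, and Pik3ip1 gave 0.53. For Torin against naive, the block placed Irs2 past the threshold (-0.82) and gave 6 members called. Pik3cd then gave -0.03, and the Foxo3 transcript share changed by -1.306 points. Members called stayed at 7 and 2 with the block in the other comparisons.

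Signs reversed for these log2 changes. Foxo3, stimulated against naive, ran from -0.36 to 0.03 under omissions, the last without number 2. Pik3ip1, Torin against stimulated, ran from -0.70 to 1.70 under omissions, with 1.70 without stimulated 1 and 1.61 without number 1. Pik3cd, Torin against naive, was -0.32 with library totals alone, -0.12 with a mean CPM of at least 5, and from -0.09 to 0.26 under omissions. Transcript shares, in percentage points, reversed without being called. The main transcript of Pik3r1 gave -4.239 to 1.621 under omissions for stimulated against naive and -0.6648 to 9.788 for Torin against stimulated. In the latter, Foxo4 gave -6.098 to 0.6348 and Pik3ip1 -1.406 to 13.06, and Pik3ip1 -0.626 among protein-coding transcripts alone. For Torin against naive, Foxo3 gave -7.219 to 8.036 and Pik3cd -23.27 to 13.99 under omissions, Pik3r1 -0.1608 among protein-coding transcripts alone, and Inpp5d 5.422 over full-length coding transcripts, added after seeing the data. The Foxo1 share of FOXO transcripts gave -6.69 to 0.1036 for stimulated against naive and -0.6812 to 4.389 for Torin against naive under omissions. Of 321 alternatives for 18 shares, 19 reversed and 0 were called, where comparisons with Torin libraries could not pass the threshold.

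Foxo4 lies under 1 CPM in stimulated libraries, and Pik3ip1 has the largest standard error of the members after stimulation (0.93). In simulated data, which held far fewer changed genes than the real data, 2-fold changes were rarely recovered.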
